A study of Homo sapiens with 9 samples.

Results

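Heme is made from glycine and succinyl-CoA by enzymes that work in turn in the mitochondrion, in the cytosol and again in the mitochondrion. The first enzyme, 5-aminolevulinate synthase, limits the rate and exists in 2 forms, ALAS1 in most tissues and ALAS2 in erythroid cells. ALAD and UROS are known to be transcribed from a housekeeping start as well as from a start used in erythroid cells, and both forms encode the same protein. The 9 genes described here are ALAS1, ALAS2, ALAD, UROS, UROD, CPOX, PPOX, FECH and SLC25A38, out of 62700 genes in Gencode v44, of which 22384 had at least 1 read pair. For each gene, the read pairs were summed whose 5′ and 3′ ends both lay on the strand of the gene and within 1 kb of its annotated body.

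The cells were K562, an established human erythroleukemia line from chronic myeloid leukaemia, and the same line served for both conditions. Cells exposed to 1 μM imatinib for 24 h were compared with cells given only DMSO for the same time, with 2 biological replicates of each. Imatinib inhibits the BCR-ABL1 tyrosine kinase that drives this line. TIF-Seq2 joins the ends of full-length cDNA into a circle, and each read pair gives the transcription start site (TSS) and the poly(A) site (PAS) of 1 capped, polyadenylated molecule. A transcript isoform (TIF) is defined by its start cluster together with its end cluster. Levels are given as CPM, the read pairs of a gene scaled by library size with TMM factors. The 4 libraries held between 2263121 (imatinib replicate 2) and 5135829 (DMSO replicate 2) de-duplicated read pairs. The count filter of the tests asked for 10 read pairs, scaled to the median library size, in at least 2 libraries, so a gene rare in DMSO could enter only where it was high after imatinib. Of 10 erythroid marker genes, 8 reached this level in both DMSO libraries, and 7 of these were called higher after imatinib (edgeR, adjusted p under 0.05). Over all genes at this level in both DMSO libraries, 5.81% were called higher. The summed level of the 10 markers lay between 5918 and 7299 CPM in the DMSO libraries and between 19752 and 20109 CPM in the imatinib libraries. TFRC, the transferrin receptor, was the 1 of the 8 that did not pass. The summed level of the 4 megakaryocyte markers stayed between 4.62 and 15.7, that of the 4 lymphoid markers between 12.0 and 21.5 and that of the 4 granulocyte and monocyte markers between 34.5 and 130, nearly all of it LYZ. GP9, ELANE, CD14, MS4A1 and CD3E had no read pair in any library. The part of this marker difference in the changes of the heme genes was not tested, and in bulk RNA a larger share of erythroid cells and more RNA per cell cannot be told apart.

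Of the 9 genes, 6 were higher after imatinib, namely ALAS2, ALAD, UROS, CPOX, PPOX and FECH, and none was lower (edgeR quasi-likelihood test, adjusted p under 0.05 over 12135 genes tested). All 9 reached the filter level in both DMSO libraries. Among all genes tested, 14.8% were called and 8.69% were called higher. All 6 also passed a log2 fold change of 1.5, which 6.46% of the genes tested did in this direction. The median log2 fold change of the 9 genes was 2.54, against 0.03 over all genes tested. ALAS1, UROD and SLC25A38 did not pass the test.

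**Figure D1:**
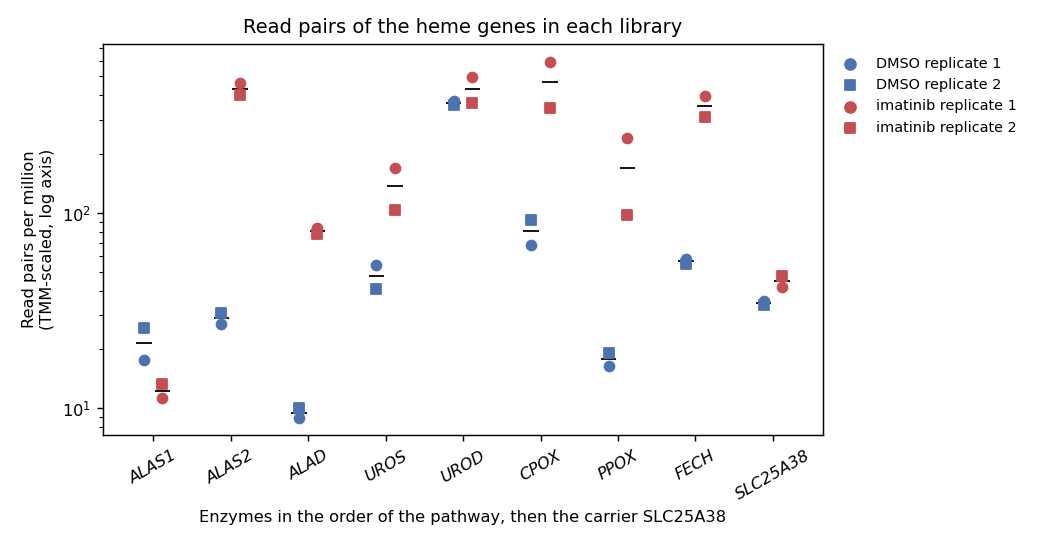
CPM (TMM-scaled, log axis) of each heme gene in the 4 libraries, with the mean of each condition as a bar. The imatinib libraries lie above the DMSO libraries for ALAS2, ALAD, UROS, CPOX, PPOX and FECH, and also for SLC25A38, which did not pass the test. ALAS1 lies lower and the UROD libraries overlap in level.

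The first step showed the widest contrast. ALAS2 (chrX:55009055-55030977, minus strand, hg38) had 27.2 and 30.6 CPM in the DMSO libraries and 464 and 400.1 in the imatinib libraries. The conditions were far apart and the replicates close together, with a log2 fold change of 3.90 ± 0.28 (SE, n = 2 against 2) and an adjusted p of 0.000895 (edgeR). ALAS1 (chr3:52198086-52214327, plus strand), the general form, had 17.6 and 25.8 CPM in DMSO and 11.3 and 13.3 after imatinib. Both imatinib libraries were below both DMSO libraries, but the log2 fold change of -0.84 ± 0.34 did not pass the test (adjusted p = 0.134, edgeR). The ALAS1 change depended on the libraries used. It was -1.10 without DMSO replicate 1 and -0.54 without DMSO replicate 2. Without imatinib replicate 1 it was -0.70, and without imatinib replicate 2 it was -0.98. These fits left 1 library in a condition, so only the size of the change is given. With all 4 libraries kept, leaving out the 3′ ends rich in A made the decrease smaller, and it did not pass in that setting either. Within a library, the log2 ratio of ALAS2 to ALAS1 read pairs was 0.62 and 0.25 in DMSO and 5.36 and 4.91 after imatinib. With the 3′ ends rich in A left out, which took away many ALAS1 read pairs, it was 1.13 and 0.97 in DMSO and 5.81 and 5.42 after imatinib. Each captured molecule gives 1 read pair in this assay, so the ratio was not scaled by length. Whether both transcripts were captured equally well was not tested. SLC25A38 (chr3:39383370-39397351, plus strand), a mitochondrial carrier that brings glycine to this enzyme, stood at 35.2 and 33.7 in DMSO and at 41.6 and 47.6 after imatinib, a log2 fold change of 0.37 ± 0.28 (adjusted p = 0.408, edgeR).

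In the cytosol, ALAD condenses aminolevulinate to porphobilinogen. ALAD (chr9:113386312-113401290, minus strand) had 8.95 and 10.0 CPM in DMSO and 83.8 and 78.2 after imatinib, so the conditions did not overlap. The log2 fold change was 3.09 ± 0.31 (adjusted p = 0.00139, edgeR). UROS, which closes the tetrapyrrole ring (chr10:125784980-125823258, minus strand), went from 54.0 and 40.6 to 169 and 104 CPM. This was the smallest of the 6 called changes, at 1.54 ± 0.33 on the log2 scale (adjusted p = 0.0167, edgeR), and it did not pass without DMSO replicate 2 (1.33, adjusted p = 0.112). UROD, which takes carboxyl groups off the ring (chr1:45010950-45015575, plus strand), had 376 and 359 CPM in DMSO and 494 and 364 after imatinib. The imatinib replicates differed more from each other than the lower of them did from DMSO, and the log2 fold change was 0.23 ± 0.26 (adjusted p = 0.594, edgeR).

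The enzymes of the return to the mitochondrion all rose. CPOX (chr3:98579446-98593648, minus strand), coproporphyrinogen oxidase, had 68.7 and 92.5 CPM in DMSO and 594 and 345 after imatinib, a log2 fold change of 2.54 ± 0.34 (adjusted p = 0.00336, edgeR). PPOX (chr1:161166056-161178013, plus strand), protoporphyrinogen oxidase, had 16.5 and 19.2 in DMSO and 242 and 97.8 after imatinib. Its log2 fold change was 3.25 ± 0.44 (adjusted p = 0.00364, edgeR), and as a ratio its imatinib replicates lay further apart than those of any other member. Without imatinib replicate 1 it was 2.46, still past the threshold. FECH (chr18:57544377-57586732, minus strand), the ferrochelatase that inserts iron, had 58.1 and 54.8 in DMSO and 399 and 309 after imatinib. With 2.65 ± 0.28 on the log2 scale (adjusted p = 0.00153, edgeR), its replicates were closer than those of CPOX and PPOX.

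**Figure D2:**
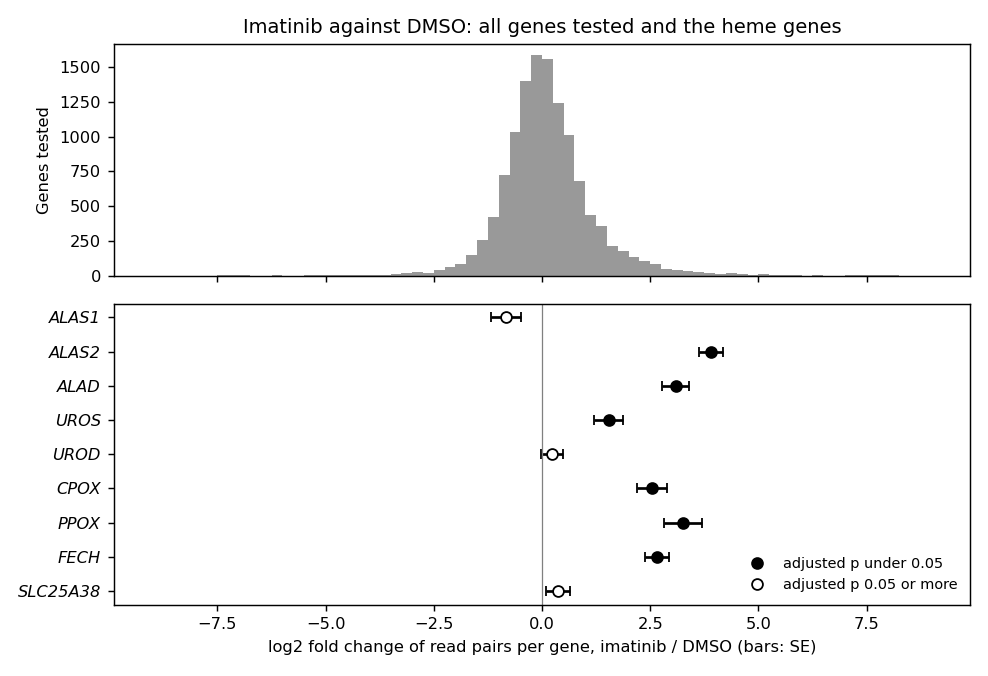
Upper panel, number of genes tested by their log2 fold change of read pairs between imatinib and DMSO. Lower panel, log2 fold change of each heme gene with its SE, filled where the adjusted p is under 0.05. The 6 filled genes lie between 1.54 and 3.90, where the histogram of all genes tested is thin.

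Each start and end of these genes was then described by its share of the read pairs of the gene. Start positions were joined into regions where they lay at most 100 bp apart and end positions where they lay at most 25 bp apart, and regions with at least 5% of the read pairs were kept, after leaving out 3′ ends followed by a stretch rich in A (at least 7 A among 10 nt), where priming inside the transcript is possible. Intervals are 95% Wilson intervals per library and cover counting error only. This filter removed 34.1% of the ALAS1 read pairs and at most 3.55% of those of any other member.

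ALAD and UROS carry the pair of starts that separates housekeeping from erythroid transcripts. The 150 bases before the most used position of each start are shown from the hg38 genome, 5′ to 3′ on the strand of the gene. Capitals mark 2 kinds of words on either strand. One is AGATAA, also with T as its first or G as its last base, which GATA factors are known to bind, and the other is the GC box GGGCGG.

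ALAD housekeeping start, chr9:113401285-113401434: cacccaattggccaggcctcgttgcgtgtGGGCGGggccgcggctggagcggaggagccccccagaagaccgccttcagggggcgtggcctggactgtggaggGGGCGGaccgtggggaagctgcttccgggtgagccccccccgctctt
ALAD erythroid start, chr9:113397277-113397426: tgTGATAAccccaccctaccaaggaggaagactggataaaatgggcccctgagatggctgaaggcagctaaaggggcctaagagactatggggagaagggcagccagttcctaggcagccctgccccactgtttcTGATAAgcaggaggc
UROS housekeeping start, chr10:125823215-125823364: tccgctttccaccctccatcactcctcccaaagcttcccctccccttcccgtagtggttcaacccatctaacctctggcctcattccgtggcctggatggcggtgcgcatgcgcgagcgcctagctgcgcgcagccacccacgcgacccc
UROS erythroid start, chr10:125816615-125816764: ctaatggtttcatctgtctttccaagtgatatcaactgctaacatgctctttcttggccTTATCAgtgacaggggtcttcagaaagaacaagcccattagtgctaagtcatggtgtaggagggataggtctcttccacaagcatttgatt

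In both genes a GATA word stood before the erythroid start and none before the housekeeping start. At ALAD the words began 148 and 15 bases upstream of the erythroid start, while the housekeeping start had 2 GC boxes. The UROS word began 91 bases upstream. Of the 15953 TSS clusters found over the genome, 10.3% held a GATA word in such a window and 54.9% a GC box. Of all 15 start regions of the 9 genes, 6 held a GATA word, and these included start 2 of UROD (131 bases upstream) and start 1 of CPOX (125 bases upstream, with 2 GC boxes). A match describes the letters and is no evidence of binding.

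The starts of ALAD were used very unequally. The upstream start, at the annotated first exon 1A, gave 23 and 39 read pairs in DMSO and 219 and 102 after imatinib. These were 74.2% (interval 56.8 to 86.3) and 79.6% (66.4 to 88.5) of the ALAD read pairs in DMSO and 59.7% (54.6 to 64.6) and 58.6% (51.2 to 65.7) after imatinib. The erythroid start, 4008 bp further downstream and 126 bp from the annotated start of ALAD-204, gave 2 and 0 read pairs in DMSO and 42 and 13 after imatinib. Its share after imatinib was 11.4% (8.58 to 15.1) and 7.47% (4.42 to 12.4), against 6.45% (1.79 to 20.7) and 0% (0 to 7.27) in DMSO. The intervals of imatinib replicate 1 and DMSO replicate 2 did not overlap, while those of the other pairs of libraries did. The housekeeping start stayed the main ALAD start in every library, and its level went from 6.64 and 7.50 to 48.4 and 45.3 CPM, a 6.63-fold difference of the means. The TIFs from this start to the distal poly(A) site had 5, 10, 59 and 39 and 5, 11, 42 and 25 read pairs in DMSO 1, DMSO 2, imatinib 1 and imatinib 2, with log2 fold changes of 3.27 ± 0.48 and 2.61 ± 0.49 (adjusted p = 0.00493 and 0.0118, edgeR). Neither reached the filter level in both DMSO libraries, and the call of the latter was lost without DMSO replicate 1 (adjusted p = 0.0696). The erythroid start was not among the TSS clusters and was not tested. A further start region lay in the last exon, exon 12, with 2 and 0 read pairs in DMSO and 37 and 20 after imatinib. Its share was 10.1% (7.40 to 13.6) and 11.5% (7.57 to 17.1) after imatinib, against 6.45% (1.79 to 20.7) and 0% (0 to 7.27) in DMSO. A higher share in the imatinib libraries was thus not particular to the erythroid start.

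At UROS the erythroid start was the main one in every library. It lay in the first intron, 6644 bp downstream of the start of the MANE transcript (the reference transcript of the gene), 115 bp before the start codon and 18 bp from the annotated start of UROS-203. It gave 57.1% (49.8 to 64.0) and 59.0% (52.2 to 65.5) of the UROS read pairs in DMSO and 63.1% (59.6 to 66.5) and 56.6% (50.1 to 62.9) after imatinib. The housekeeping start gave 38.6% and 35.6% in DMSO and 32.3% and 37.6% after imatinib, and for both starts the conditions overlapped. Both were higher in level in the imatinib libraries, going from 20.5 and 14.04 to 52.9 and 37.8 CPM at the housekeeping start, a ratio of means of 2.62, and from 30.3 and 23.3 to 103 and 56.9 at the erythroid start, a ratio of 2.99.

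Within the erythroid UROS region the single TIFs differed in whether they were called. The TIF that starts 6644 bp downstream of the MANE start had 17 and 23 read pairs in DMSO and 150 and 34 after imatinib and was called higher (log2 fold change 2.58 ± 0.50, adjusted p = 0.0133, edgeR). The change was 1.82 without imatinib replicate 1 and 3.05 without imatinib replicate 2, both past the threshold. The TIF that starts 6702 bp downstream had 17 and 10 in DMSO and 16 and 5 after imatinib, with a log2 fold change of 0.07 ± 0.59 (adjusted p = 0.955), a sign that changed between settings. TIFs from 6603 and 6617 bp downstream had 4, 3, 27 and 6 and 1, 4, 13 and 7 read pairs in DMSO 1, DMSO 2, imatinib 1 and imatinib 2, under the filter level in DMSO. Their calls were lost with the replicate block (adjusted p = 0.0646 and 0.125, edgeR) and under DESeq2 (0.175 and 0.293). From the housekeeping start, the TIFs 44 and 2 bp downstream had log2 fold changes of 1.63 ± 0.48 and 1.75 ± 0.52 and did not pass (adjusted p = 0.0558 and 0.0574, edgeR). The cluster 6702 bp downstream made up a share of the UROS read pairs in TIFs of 16.9 ± 7.05% (SD, n = 2) in DMSO and 4.86 ± 0.697% after imatinib. Tested against the other starts of UROS, the difference did not pass (log2 change -1.87, adjusted p = 0.0893, edgeR diffSpliceDGE). The usage of the clusters 6644, 44 and 2 bp downstream was not called either, with log2 changes of 0.66, -0.26 and -0.05.

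**Figure D3:**
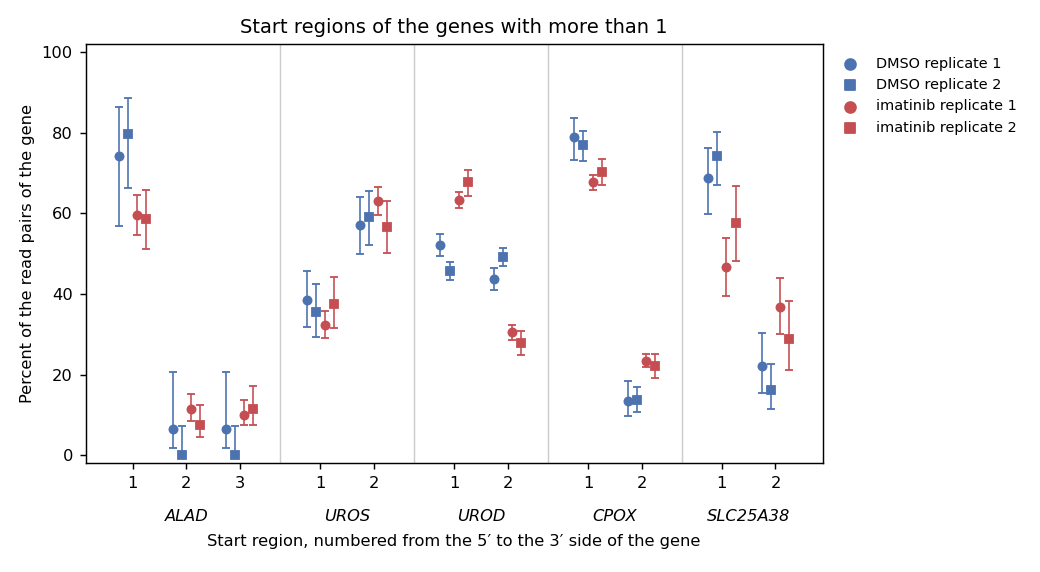
Share of the read pairs of a gene in each start region, per library, with 95% Wilson intervals. ALAD start 2 and UROS start 2 are the erythroid starts; UROD start 1 gains and UROD start 2 loses share after imatinib in both replicates, and UROS shows overlapping shares.

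ALAS2 had 1 start region, at its annotated first exon, with 94.7% and 90.6% of the read pairs in DMSO and 81.7% and 88.8% after imatinib. Its most used position was the annotated start itself. The ALAS2 transcript begins with an iron-responsive element, the hairpin through which iron regulatory proteins hold back translation when iron is short. The window before the start is shown with its GATA word in capitals, and the element with its loop in capitals.

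ALAS2 start, chrX:55030978-55031127: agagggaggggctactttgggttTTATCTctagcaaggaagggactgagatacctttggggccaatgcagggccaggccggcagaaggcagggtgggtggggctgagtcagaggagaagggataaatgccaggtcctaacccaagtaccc
ALAS2 iron-responsive element, chrX:55030942-55030968: tcgttcgtcctCAGTGCagggcaacag

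The GATA word began 127 bases upstream of the start and the loop 20 bases downstream, inside the 36 bases of exon 1. A hairpin of this pattern (C, 5 bases, CAGTGN and 5 bases that pair with the first 5 at no fewer than 4 places) was found within 100 bases of 0.288% of all TSS clusters. The read pairs that started before the element, and so carried it whole, were 94.7% (88.1 to 97.7) and 89.9% (84.3 to 93.7) of the ALAS2 read pairs in DMSO and 80.5% (78.8 to 82.2) and 88.6% (86.3 to 90.5) after imatinib. Most ALAS2 molecules of both conditions therefore held the element.

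UROD, whose total did not pass the test, had start shares whose library values did not overlap between the conditions. Start 1 lay at the annotated first exon and start 2 in exon 2, 684 bp downstream on the genome and 3 bp from the annotated start of UROD-213. Start 1 gave 52.1% (49.4 to 54.8) and 45.7% (43.4 to 48.0) of the read pairs in DMSO and 63.3% (61.3 to 65.3) and 67.6% (64.4 to 70.8) after imatinib. Start 2 gave 43.6% and 49.1% in DMSO and 30.5% and 27.7% after imatinib, so the conditions did not overlap at either start. In level, start 1 went from 196 and 164 to 313 and 246 CPM and start 2 from 164 and 176 to 151 and 101, ratios of means of 1.56 and 0.74. Tested against the other UROD starts, the clusters 4 and 684 bp downstream of the MANE start were not called (adjusted p = 0.889 and 0.928, edgeR diffSpliceDGE). Among the start clusters of the 9 genes that could be tested for usage within their gene, 1 of 28 was called. Of all 9177 clusters tested 2.83% were called, so this count is no result about the 9 genes. The called cluster was in the region of UROD start 2. This cluster, 712 bp downstream of the MANE start, had 245 and 389 read pairs in DMSO and 186 and 63 after imatinib. Its share of the UROD read pairs in TIFs was 23.6 ± 2.81% (SD, n = 2) in DMSO and 9.28 ± 0.766% after imatinib, a log2 change of -1.30 against the other starts of the gene (adjusted p = 0.0362, edgeR diffSpliceDGE). The direction held without each library in turn, but the adjusted p was then between 0.0716 and 0.660, and with the replicate block it was 0.144.

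The UROD starts also decided whether the annotated start codon lay within the molecule. The 30 bases around the main cluster of start 1 are shown with the start codon in capitals, where the 10th base is the most used start of the cluster. FECH is shown beside it, since the most used position of one of its start clusters lies just past the start codon.

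UROD, chr1:45012249-45012278: gttacagacagctgaccATGgaagcgaatg
FECH, chr18:57586596-57586625: aggcaATGcgttcactcggcgcaaacatgg

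At UROD the start codon began 8 bases after this position, a very short leader, and 13.5% of the start 1 read pairs began there. At FECH the most used position of the cluster lay 4 bases after the first base of the codon. Molecules from this position therefore lacked it. UROD read pairs that started before the annotated codon and ended after the stop codon were 51.9% and 45.6% of all UROD read pairs in DMSO and 63.2% and 67.5% after imatinib. For FECH the share that started before the codon was 64.7% and 67.4% in DMSO and 61.2% and 60.6% after imatinib. The FECH cluster at the codon took in starts on both sides of the codon's first base. This cluster held 27.2 ± 2.56% (SD, n = 2) of the FECH read pairs in TIFs in DMSO and 32.6 ± 1.252% after imatinib, with no call for its usage (adjusted p = 1.00, edgeR diffSpliceDGE). Starts in the 10 bp from the first base of the codon on made up 11.9% and 12.6% of all FECH read pairs in DMSO. After imatinib they made up 13.9% and 15.7%. The next 10 bp held 3.98% and 3.51% in DMSO and 5.47% and 5.61% after imatinib. FECH had 1 start region with 2 GC boxes and no GATA word in the 150 bases before it, and it held 79.1% to 83.2% of the read pairs in all 4 libraries.

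**Figure D4:**
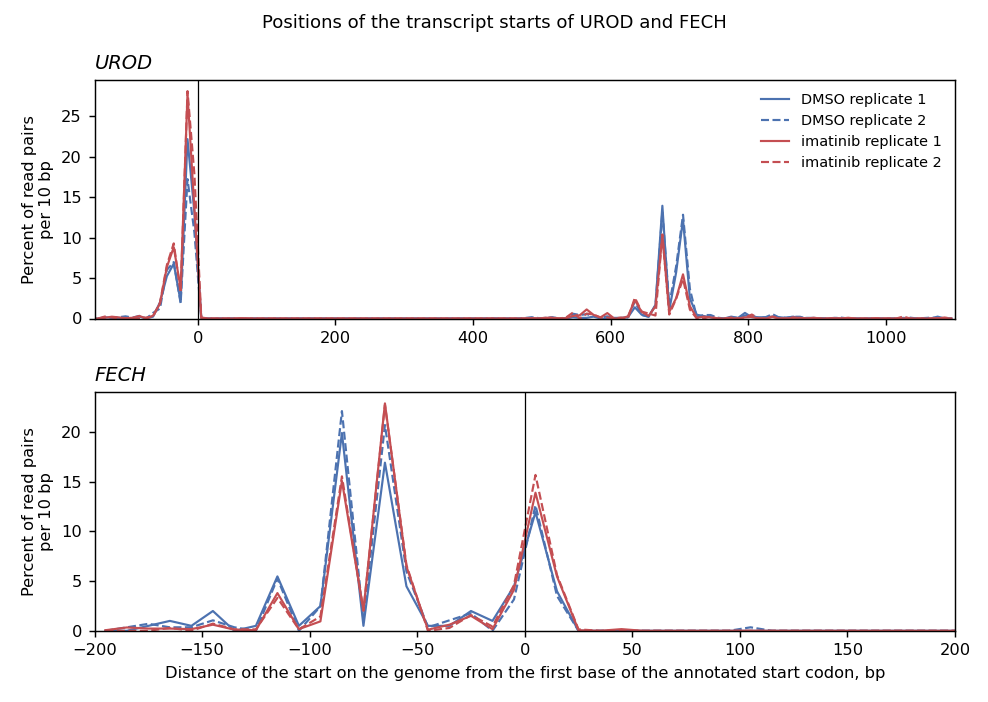
Share of the read pairs of UROD and FECH by the distance of their start from the first base of the annotated start codon on the genome, in bins of 10 bp and per library. UROD starts form a group just before the codon, higher after imatinib, and a group near 700 bp downstream, higher in DMSO, while FECH starts lie on both sides of the codon in all libraries.

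CPOX had a further start as well. Start 1, at the annotated first exon, gave 78.9% and 77.0% of the CPOX read pairs in DMSO and 67.6% and 70.4% after imatinib. Start 2 lay in exon 5, 8126 bp downstream and 13 bp from the annotated start of a gene on the same strand, ENSG00000285635 (chr3:98521133-98585498). It gave 32 and 65 read pairs in DMSO and 628 and 171 after imatinib, or 13.5% (9.73 to 18.4) and 13.6% (10.8 to 16.96) against 23.4% (21.8 to 25.0) and 22.0% (19.3 to 25.1). Of the start 2 read pairs, 61.9% ended at poly(A) 1 and 37.1% at poly(A) 2 of CPOX, both in its exon 7. Which of the genes these read pairs belong to cannot be told from their starts and was not tested further. Of all CPOX read pairs, 26.1% also met the rule for another gene. With those left out, the log2 fold change of CPOX was 2.38. Both starts were higher in level, with ratios of the mean levels of 5.16 and 9.88. TIFs from start 1 to the 2 poly(A) sites had log2 fold changes of 2.58 ± 0.39 and 2.43 ± 0.37, and TIFs from start 2 to the same sites had 3.89 ± 0.51 and 3.36 ± 0.44, all called at adjusted p between 0.00354 and 0.00575 (edgeR). The TIF with the change of 3.89 had 6 and 9 read pairs in DMSO, under the filter level there, and so did a TIF from 55 bp upstream, with 0, 4, 35 and 10 read pairs in DMSO 1, DMSO 2, imatinib 1 and imatinib 2. The usage of the start 2 cluster against the other CPOX starts did not pass the test (log2 change 0.87, adjusted p = 0.621, edgeR diffSpliceDGE).

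SLC25A38 also had a pair of starts. Start 1 gave 23.4 and 23.8 CPM in DMSO and 18.8 and 26.7 after imatinib, with overlapping conditions. Start 2, 274 bp downstream of the MANE start, gave 7.51 and 5.19 in DMSO and 14.8 and 13.3 after imatinib, and its share went from 22.0% (15.5 to 30.3) and 16.2% (11.4 to 22.5) to 36.8% (30.1 to 44.03) and 28.8% (21.02 to 38.2). One TIF from start 2 was called higher (6, 7, 26 and 12 read pairs in DMSO 1, DMSO 2, imatinib 1 and imatinib 2, log2 fold change 2.03 ± 0.52, adjusted p = 0.0346, edgeR). It was under the filter level in DMSO, and its call was lost with the replicate block (adjusted p = 0.0745), under DESeq2 (0.206) and without either DMSO library or imatinib replicate 1 (0.122 to 0.284). Its usage within the gene was not called (adjusted p = 1.00, edgeR diffSpliceDGE). ALAS1 and PPOX had 1 start region each. The PPOX start, with a GATA word 63 bases upstream, held 91.2% and 83.8% of the read pairs in DMSO and 93.9% and 95.8% after imatinib.

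At the 3′ end, UROD, ALAS1, ALAS2 and PPOX had 1 poly(A) region each, which held at least 89.5% of the read pairs in every library. Of 16 poly(A) clusters of the 9 genes tested for usage within their gene, 0 were called by edgeR diffSpliceDGE and 1 had an unadjusted p under 0.05, where 0.0597% of all 6699 clusters tested were called and 4.82% had an unadjusted p under 0.05.

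FECH and CPOX each divided their molecules among several ends, which are shown here. The 30 bases up to the most used position of each site are given with the poly(A) signals AATAAA and ATTAAA in capitals, which were present in the 40 bases before 52.3% and 19.1% of all PAS clusters.

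FECH poly(A) 1, chr18:57549574-57549603: aagtgtttctaaaaatatagaaataatgtc
FECH poly(A) 2, chr18:57549510-57549539: atggATTAAAagatccccggtggttccatg
FECH poly(A) 3, chr18:57549341-57549370: attggctatgttAATAAAtattacaacatc
FECH poly(A) 4, chr18:57548312-57548341: ttttaaaaatcacAATAAAtttttgcactc
CPOX poly(A) 1, chr3:98579584-98579613: tgcttcgtAATAAAgtttataaggaagagc
CPOX poly(A) 2, chr3:98579451-98579480: atctgctAATAAAttttattATTAAAtaag

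The FECH sites all lay in the last exon, exon 11, between 3935 and 5197 bp before the end of the MANE transcript, and poly(A) 1 was 5 bp from the annotated end of FECH-210. Poly(A) 1, without either signal, held 35.3% (29.0 to 42.1) and 31.9% (26.8 to 37.6) of the FECH read pairs in DMSO and 43.5% (41.2 to 45.8) and 39.0% (35.4 to 42.7) after imatinib. Poly(A) 2 held 25.4% and 33.3% in DMSO and 21.8% and 16.1% after imatinib, so neither site overlapped between the conditions. Sites 3 and 4 held 11.9% to 19.0% over all libraries. The usage of neither the poly(A) 1 nor the poly(A) 2 cluster was called (log2 changes 0.38 and -0.68, unadjusted p = 0.358 and 0.125, edgeR diffSpliceDGE). Of the 11 FECH TIFs tested, 3 reached the filter level in both DMSO libraries, all from 13 bp downstream of the MANE start. To poly(A) 1, 2 and 3 they had log2 fold changes of 3.15, 2.11 and 2.99, all called higher (adjusted p = 0.00294, 0.0274 and 0.00403, edgeR). The call at poly(A) 2 was lost with the replicate block (adjusted p = 0.0523) and without DMSO replicate 1 (0.134), and its change was 1.41 without imatinib replicate 1. The other 8 TIFs had 2 to 20 read pairs in the DMSO libraries and 8 to 184 in the imatinib libraries. Of all 11, 3 were not called under DESeq2 and 3 not with the replicate block.

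CPOX molecules divided almost evenly between sites 138 and 5 bp before the end of the MANE transcript, with 53.6% and 51.3% at poly(A) 1 in DMSO and 48.6% and 52.4% after imatinib. The choice differed between the CPOX starts in the pooled read pairs, since poly(A) 1 took 46.9% of the read pairs from start 1 and 61.9% of those from start 2. In each library the share was higher for start 2, at 62.5% against 52.4%, 56.9% against 50.8%, 60.8% against 44.8% and 67.8% against 49.3% in DMSO 1, DMSO 2, imatinib 1 and imatinib 2. ALAD used a proximal site 1900 bp before its end, without either signal, in 16.1%, 18.4%, 21.5% and 5.75% of its read pairs in the same order. UROS used a site in intron 9, 2 bp from the annotated end of UROS-206, in 9.24%, 5.85%, 3.38% and 6.19%. SLC25A38 had 3 sites within its last exon, of which the middle one held 55.9% and 64.1% in DMSO and 70.3% and 73.1% after imatinib.

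**Figure D5:**
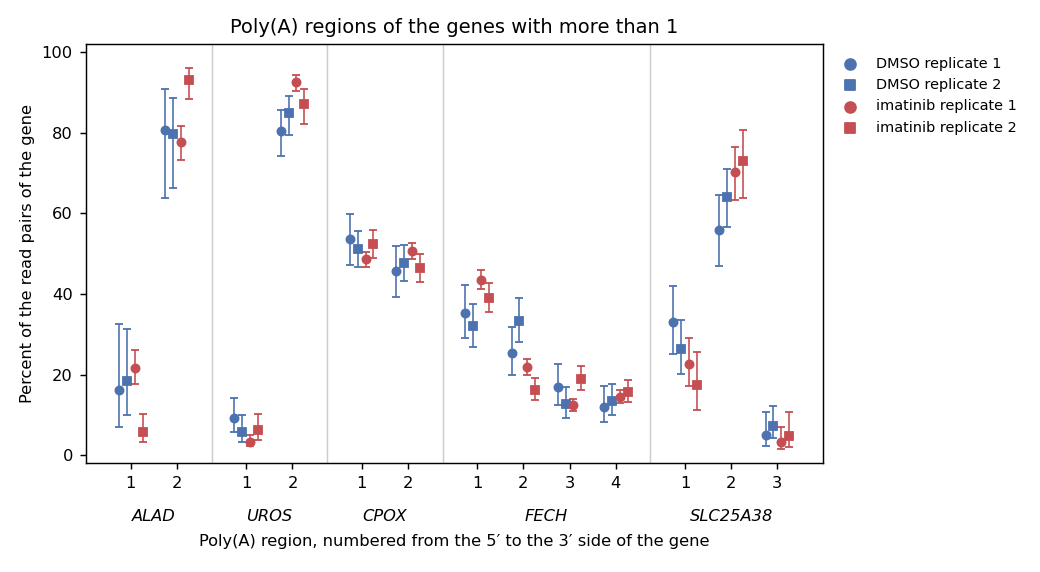
Share of the read pairs of a gene in each poly(A) region, per library, with 95% Wilson intervals. CPOX divides almost evenly between its sites in all 4 libraries, and FECH uses 4 sites, of which the shares of the first are higher and those of the next lower after imatinib. No poly(A) cluster of these genes was called for usage.

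A short ALAS2 transcript was seen only in the imatinib libraries. It started at the annotated start and ended 13287 bp before the annotated end, with 0 and 0 read pairs in DMSO and 18 and 12 after imatinib over all its starts. Against a floor of 3 read pairs over the DMSO libraries this was at least 12.8-fold higher. As a share of ALAS2 it could not be told apart, since 0 of 214 read pairs in DMSO allowed up to 1.40% and the share after imatinib was 1.37 ± 0.274% (SD, n = 2).

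Counted by start and end together, the 9 genes had 79 TIFs, and 42 passed the filter on low counts. Of the 42, 26 did not reach the filter level in both DMSO libraries, so that each of these entered the test through at least 1 imatinib library. Of the other 16, 10 were called, each as higher (edgeR, adjusted p under 0.05), and all 10 lay beyond a log2 fold change of 1.5. Of all 16020 TIFs tested, 11.1% were called, 6.38% as higher, and with this fold 9.83% were called, 5.74% as higher. Of these, 13063 TIFs reached the level in both DMSO libraries, and 9.15% of them were called, 3.35% as higher. By gene, the calls were 2 of 2 for ALAS2, 1 of 2 for UROS, 3 of 3 for CPOX, 1 of 1 for PPOX, 3 of 3 for FECH, 0 of 4 for UROD and 0 of 1 for ALAS1, while ALAD and SLC25A38 had no such TIF. The main ALAS2 TIF, from the annotated start to the annotated end, had 67 and 110 read pairs in DMSO and 1195 and 642 after imatinib, a log2 fold change of 3.92 ± 0.29 (adjusted p = 0.00103, edgeR). The next, from 29 bp upstream, had 15, 16, 178 and 67 read pairs and a log2 fold change of 3.42 ± 0.43 (adjusted p = 0.00326). The other ALAS2 TIFs had at most 3 read pairs in DMSO, so no fold change is given for them. The main PPOX TIF had 30 and 61 read pairs in DMSO and 859 and 175 after imatinib (log2 fold change 3.90 ± 0.50, adjusted p = 0.00345, edgeR), and the change was 3.04 without imatinib replicate 1 and 4.42 without imatinib replicate 2, both past the threshold. For UROD, the main TIF from start 1 had 660, 806, 1375 and 543 read pairs, a log2 fold change of 0.84 ± 0.27 (adjusted p = 0.0756, edgeR), and the TIF from the cluster called for usage had -0.88 ± 0.34 (adjusted p = 0.123).

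Around the pathway, of 14 genes of heme and porphyrin transport, 12 were tested, 11 reached the filter level in both DMSO libraries and 5 of these were higher. Over all genes, 5.81% of those at this level in DMSO were called higher. The median log2 fold change of the 11 was 1.01, against -0.06 over all genes at this level. Among them, SLC25A37, the mitochondrial iron importer mitoferrin of erythroid cells, had 169 and 212 read pairs in DMSO and 2178 and 623 after imatinib (log2 fold change 3.09 ± 0.34, adjusted p = 0.00209, edgeR). The ABC transporters ABCB10 and ABCB6 rose by 2.25 and 1.60 on the log2 scale. The exporter ABCG2, under the filter level in DMSO, had 1 and 1 read pairs there and 13 and 6 after imatinib. In heme breakdown, 1 of 3 genes tested was higher, BLVRB, a biliverdin reductase (log2 fold change 1.33 ± 0.25, adjusted p = 0.0100, edgeR).

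Of 6 tested genes that control heme synthesis, 1 was higher, EIF2AK1, the heme-regulated kinase that slows translation when heme is short (log2 fold change 0.92 ± 0.26, adjusted p = 0.0471, edgeR). Next in this list by its adjusted p was BACH1, a repressor that heme releases from DNA, at 0.38 ± 0.33 (adjusted p = 0.462). For iron-sulfur clusters and substrate supply, 11 were tested, 10 reached the filter level in both DMSO libraries, with a median log2 fold change of -0.31, and 1 of these was called. It was HSPA9, a mitochondrial chaperone, which was lower (-1.27 ± 0.26, adjusted p = 0.0148, edgeR). SLC6A9, a glycine transporter of the plasma membrane, was under the level in 1 DMSO library, with 26 and 12 read pairs in DMSO and 159 and 86 after imatinib (log2 fold change 2.96 ± 0.49, adjusted p = 0.00662, edgeR). Set against the 14.8% of all genes called, 1 of 3, 1 of 6 and 1 of 10 are no result about these lists. Of 7 erythroid transcription factors tested, 3 were higher, GFI1B, KLF1 and LMO2, at 1.58, 1.51 and 1.38 on the log2 scale. All 7 reached the filter level in both DMSO libraries, and 5.81% of all genes at this level were called higher. GATA1, named here after its values were seen, with 679 and 1364 read pairs in DMSO and 1067 and 450 after imatinib, had a log2 fold change of -0.07 ± 0.27 (adjusted p = 0.883, edgeR).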

How the data were processed

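The 4 TIF-Seq2 libraries were grouped by their sample labels. The deposited tables hold raw counts of read pairs for each combination of end positions. Per the study's methods and processing notes, the authors trimmed the reads with cutadapt 1.16, aligned the ends separately to hg38 with STAR 2.5.3a, kept uniquely mapped pairs and removed PCR duplicates by UMI. The 3′T-fill and PacBio samples were not used here.

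Read pairs were summed for every gene of Gencode v44, and pairs that fell to several genes counted for each. TIFs were rebuilt with the limits given in the study's methods: 3′ ends rich in A left out, power-law normalization, at least 1 normalized count in 2 or more libraries, tags joined within 10 bp, and at least 4 read pairs with a span of 300 bp to 2 Mb. This gave 15953 TSS clusters and 34441 TIFs. The study's own catalogue, not used here, holds more of both, so some of its starts and TIFs could not be tested here. Tests used edgeR 4.0.16 in R 4.3.3 (quasi-likelihood, robust, TMM, filterByExpr, and diffSpliceDGE for usage within a gene) with Benjamini-Hochberg adjustment over all features. SEs were derived from the F statistic. DESeq2 1.42.0, the tool of the study, was an alternative. The steps were tested on simulated data. Replicates of a condition differed by more than counting error (chi-square per degree of freedom 9.38 in DMSO and 15.3 in imatinib).

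Named were all 9 genes, their regions with at least 5% and 10 read pairs, per gene the 4 TIFs with most read pairs and those called, and in other lists the genes called beyond a log2 fold change of 1, or else the 2 with the smallest adjusted p. An item that met this rule is not reported here. Housekeeping and erythroid starts were named only for ALAD and UROS, by an annotated start within 200 bp. The members and lists were chosen with earlier results of these data known.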

Additional observations from a re-analysis of the deposited data

How the results depend on the processing

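The settings tried were DESeq2, its size factors in edgeR, no filter on low counts, the replicate number as a block, pairs of 1 gene alone, no window around the gene, 3′ ends rich in A left out, another tag filter, joining within 20 bp and each library left out. The tag filter and the joining concern TIFs and clusters alone. Under all the others the 6 heme genes remained called higher, except UROS without DMSO replicate 2, and between 5 and 7 of the 9 genes were called with 1 library left out. Over all genes, 1800 were called, 2736 without the filter and 820 to 3955 with 1 library left out. Under DESeq2 48.5% of the calls were higher, against 58.6%. For the heme genes 29 TIFs were called, 10 of them at the filter level in both DMSO libraries, and 20 to 38 with 1 library left out. Of all TIFs 1779 were called, 3106 without the filter and 713 to 3597 with 1 library left out. Of the heme start clusters, where 1 was called for usage (UROD), 0 were without the filter, with the other tag filter and with any 1 library left out. Over all start clusters, 260 were called and 5 to 220 with 1 library left out, and over all poly(A) clusters 4 were called, 2 without the filter, 8 with the other tag filter and 1 to 33 with 1 library left out. The UROS TIF from 6702 bp downstream had log2 fold changes of -0.0399 under DESeq2, -0.00091 without the filter and -0.52 to 0.74 with 1 library left out, and the UROD TIF from 684 bp downstream ranged from -0.40 to 0.26.

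Same-numbered libraries deviated from their group means with a correlation of -0.22 across genes, so the replicate numbers were not taken as pairs. With the replicate block, the 6 heme genes were still called, together with 1148 genes, 23 heme TIFs, 1106 TIFs, 85 start clusters, none of them in a heme gene (0 called), and 2 poly(A) clusters, and the UROS TIF from 6702 bp downstream had a log2 fold change of -0.0078. Blocking by crossed numbers, chosen after seeing the data, gave 3723 genes, 3594 TIFs and 44 poly(A) clusters.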
